A study of Mus musculus with 2 samples.

Results

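Mitochondria in muscle fuse, divide, fold their inner membrane, travel along microtubules and are cleared when damaged, and the genes for these steps were followed here in gastrocnemius muscle with and without the coactivator PGC-1β in myofibres. A list of 36 nuclear genes was taken by gene symbol in the platform's probe annotation and sorted by role into 6 subgroups: fusion (4 genes), fission (9), inner membrane proteases and scaffold (6), cristae organization (7), transport (4) and mitophagy (6). Of these, 31 genes had a probe set of their own among 19936 named nuclear genes. Mtfr1, Phb, Apoo and Rhot2 were reached only through probe sets annotated to several genes, and 1 mitophagy gene of the list was not analysed here. Minos1 was found under its newer symbol Micos10.

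Total RNA of gastrocnemius, a mainly fast limb muscle of the calf, was hybridised to Affymetrix Mouse Gene 1.0 ST arrays, with 1 array for control and 1 for PGC-1β(i)skm-/- male C57BL/6 mice. Each array held the pooled RNA of 3 mice aged 8 weeks, all of which had been given tamoxifen at 1 mg per day for 5 days from 7 weeks of age, and muscle was taken 1 week after the last dose. Both genotypes carried PGC-1β L2 alleles, in which exon 5 is flanked by LoxP sites. The mutants also bore the HSA-Cre-ERT2 transgene, a tamoxifen-dependent recombinase under the human skeletal actin promoter that is active in myofibres and not in the other cells of the muscle, whereas the controls (called wild-type in the sample labels) lacked it, so that deletion and transgene cannot be told apart.

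Outer membranes are joined by the mitofusins and inner membranes by OPA1, which the proteases OMA1 and YME1L1 cleave. Division needs the dynamin DRP1, which is recruited from the cytosol by receptors of the outer membrane. The MICOS complex holds the necks of the cristae, the folds that carry the respiratory chain, and in striated muscle, which is densely packed with mitochondria, loss of fusion or of cristae structure is known to impair respiration.

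All values below are log2 signals after the authors' normalization, and a log2 difference is always the mutant array minus the control array. With a single array per genotype there was no replicate check, so no p-value or error between mice is given, and each difference compares these 2 pools. The targeted gene, Ppargc1b, had a signal of 7.87 on the control array and 7.06 on the mutant array, and its log2 difference of -0.81 was the lowest of all named genes. Median signals over 35556 probe sets were 6.00 and 6.02. Of the myofibre markers, 8 of 10 were higher in the mutant, with a summed linear signal of 1.01 times the control and differences from -0.16 for Myh1, a fast myosin heavy chain that was 10.6% lower, to 0.04 for Ckm. In contrast, 9 of 9 connective tissue markers, 8 of 8 macrophage markers and 5 of 5 endothelial markers were higher on the mutant array, with summed signals 1.14, 1.203 and 1.08 times the control. The 3 nerve and Schwann cell markers were all lower (0.931 times), as were the 2 red blood cell markers (0.941 times), and 2 of 3 adipocyte markers were higher (1.04 times). The part of these cell types in the results below was not tested, and in whole muscle a smaller share of a cell type and less RNA per cell cannot be told apart.

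Most genes of mitochondrial shape had a slightly lower signal in the mutant, by a median of 5.53%. Fusion genes stood at a median of 11.7% below control, cristae genes at 8.28% and fission genes at 7.11%, whereas mitophagy genes were at 0.883% below it, a median log2 difference of -0.01 that became -0.07 with the probe sets lying among neighbours of the genes' own chromosomes (described with Bnip3). With the brightest probe set of each gene, the lowest ratios belonged to Mtfp1, Mief2, Minos1 and Immt, while a second probe set of Parl had a still lower one (0.813), and none of the 31 measured members reached a ratio of 0.8 or below, or of 1.2 or above. Signals were below control for 29 of 31 members, against 50.2% of all named genes and 56.4% of the 8205 genes whose mean log2 signal was at least 7, a level that every member exceeded. A ratio of 0.9 or less was found for 8 of 31 members, beside 8.11% of all named genes and 8.8% of those with a mean signal of at least 7. The wider thresholds of 0.8 or below and 1.2 or above were passed by 0.652% and 1.64% of named genes.

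**Figure D1:**
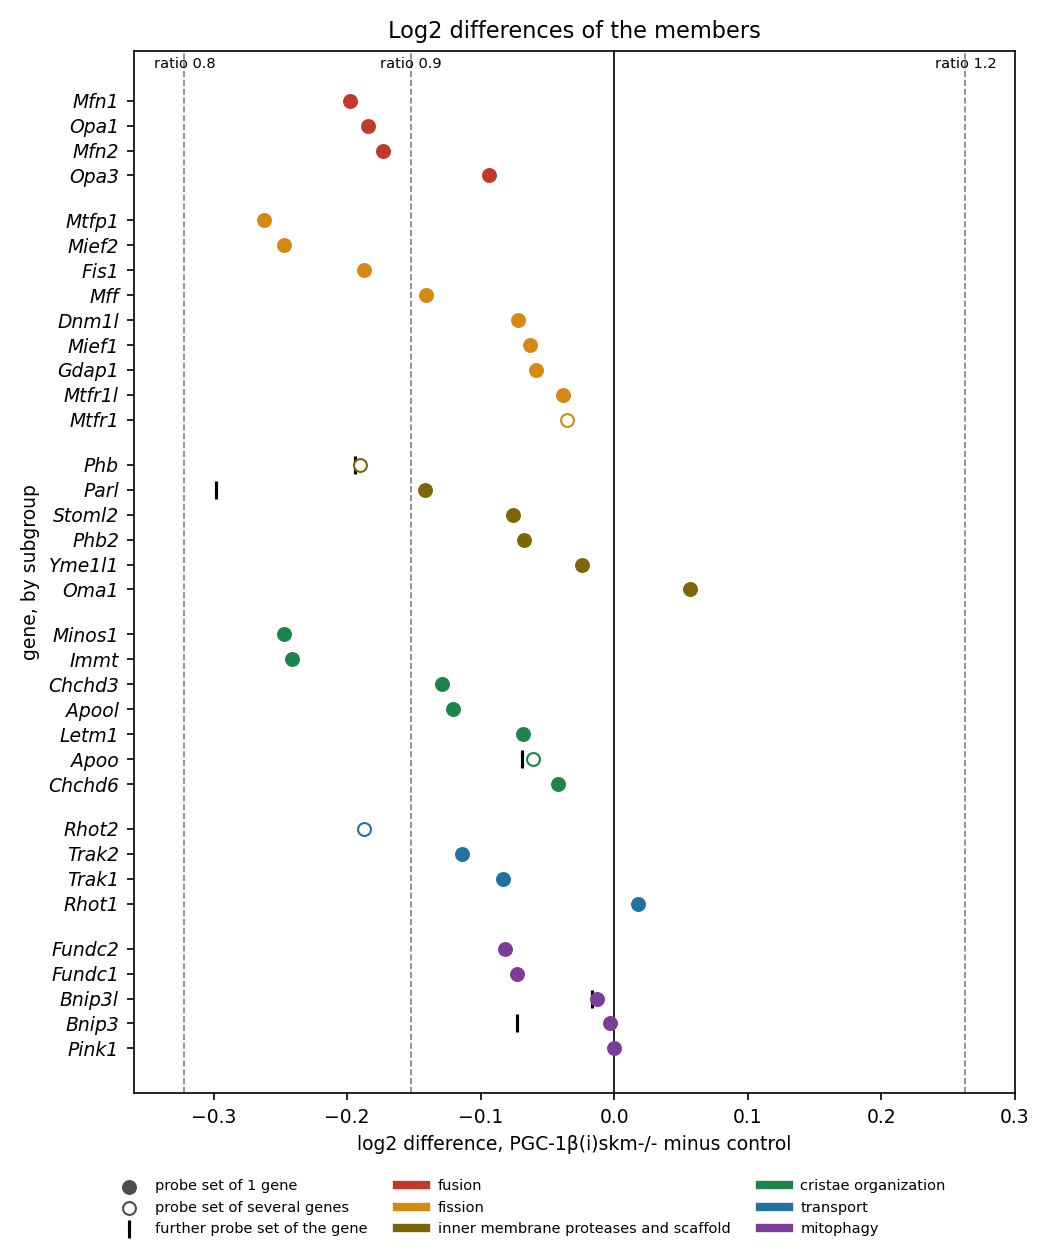
Log2 difference of each member (x axis, mutant minus control), with genes on the y axis sorted within their subgroup. Filled points are probe sets of 1 gene, open points are probe sets annotated to several genes, ticks are further probe sets of the same gene, and dashed lines mark ratios of 0.8, 0.9 and 1.2. Points lie between -0.26 and 0.06, and Mtfp1, Mief2, Minos1 and Immt lie furthest to the left among the points, with a tick of Parl at -0.30 beyond them.

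The members' mean signals ranged from 7.13 to 12.2, all above the median of either array. As a yardstick within the arrays, 497 genes had at least 2 probe sets of such brightness. The log2 differences of their 2 brightest probe sets lay a median of 0.04 apart, with a 90th percentile of 0.16. The SD of the signed gaps, divided by the square root of 2, gave an SD of 0.07 for a single probe set. This spread comes from the 2 arrays and does not cover variation between mice. It may also hold differences between targets and not measurement alone. The 2 probe sets of a gene can lie among neighbours of different chromosomes, as described below for Parl. Against it, 8 members lay at or below -0.15, 15 between -0.15 and -0.05, 7 within 0.05 of 0, and 1 at 0.05 or more. Over all named nuclear genes the log2 difference itself had a wider SD, 0.12. The shares of all genes in these ranges were not counted. Across the 31 genes the difference had a Pearson r of 0.0097 with the mean signal, as a description over genes of the same 2 arrays.

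**Figure D2:**
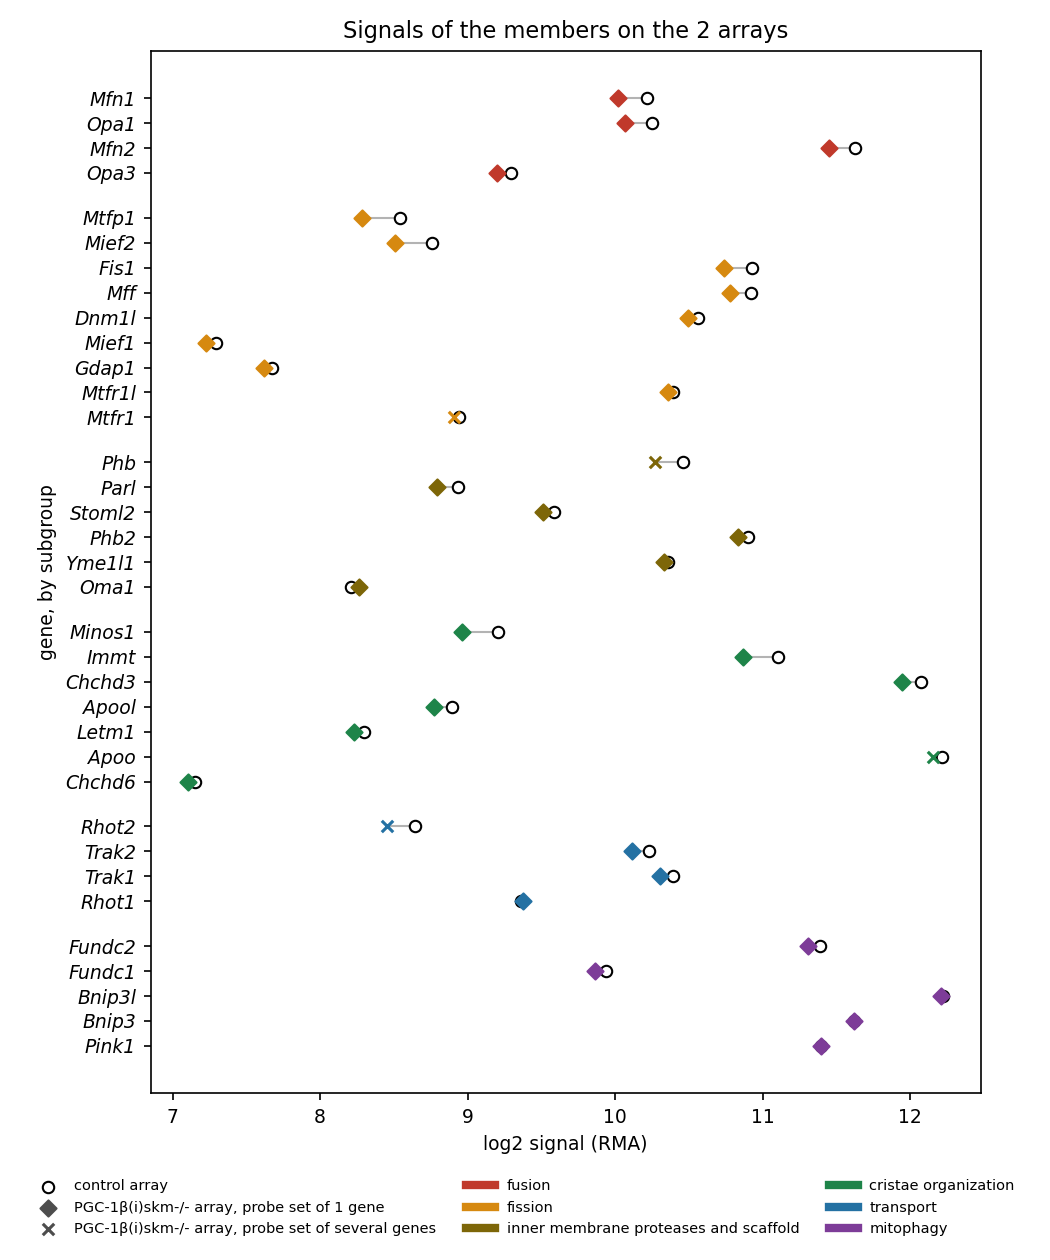
Log2 signal (x axis) of each member on the control array (open circles) and on the mutant array (diamonds, or crosses for probe sets annotated to several genes), joined by a line. Mutant symbols lie left of the control or on it for all members but Oma1 and Rhot1, and shifts are small beside the range of signals from 7.13 to 12.2.

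The promoters of 6 members are printed because these genes include the lowest of their subgroups (Mtfp1 for fission, Minos1 and Immt for cristae, Mfn1 and Opa1 for fusion) and, with Fis1, a receptor-side fission gene close to the mitofusins in its difference. The 6 genes were chosen after the values were seen. For Fis1, the paper reports similar transcript levels in both genotypes at the age of these mice, by quantitative RT-PCR. Each line gives the 250 bases that precede the most upstream RefSeq start, read 5′ to 3′ on the strand of the gene, in build GRCm38.p6. Capitals mark the letters of the GABPA motif (CCGGAAG), the half-site of the kind bound by the ERR nuclear receptors (AAGGTCA), or overlapping NRF-1 letters (GCGCATGC) on both strands. These factors are known partners or targets of PGC-1 coactivators. The windows are Immt at chr6:71831070-71831319 (plus strand), Minos1 at chr4:139131114-139131363 (minus), Mfn1 at chr3:32529232-32529481 (plus), Fis1 at chr5:136953025-136953274 (plus), Opa1 at chr16:29579084-29579333 (plus) and Mtfp1 at chr11:4095432-4095681 (minus).
Immt: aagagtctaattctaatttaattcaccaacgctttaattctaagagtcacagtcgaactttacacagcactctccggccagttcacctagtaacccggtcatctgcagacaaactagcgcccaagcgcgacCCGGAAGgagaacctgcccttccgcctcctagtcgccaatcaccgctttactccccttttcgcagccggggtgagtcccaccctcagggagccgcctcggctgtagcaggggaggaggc
Minos1: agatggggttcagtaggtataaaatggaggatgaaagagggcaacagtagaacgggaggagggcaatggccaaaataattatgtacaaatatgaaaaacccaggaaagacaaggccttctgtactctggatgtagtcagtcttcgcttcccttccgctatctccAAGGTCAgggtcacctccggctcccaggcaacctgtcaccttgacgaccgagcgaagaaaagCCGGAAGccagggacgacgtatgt
Mfn1: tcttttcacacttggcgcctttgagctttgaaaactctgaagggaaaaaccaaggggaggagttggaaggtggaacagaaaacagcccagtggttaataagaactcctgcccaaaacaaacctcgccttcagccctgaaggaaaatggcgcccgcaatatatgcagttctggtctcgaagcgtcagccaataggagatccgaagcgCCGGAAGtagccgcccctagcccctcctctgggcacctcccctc
Fis1: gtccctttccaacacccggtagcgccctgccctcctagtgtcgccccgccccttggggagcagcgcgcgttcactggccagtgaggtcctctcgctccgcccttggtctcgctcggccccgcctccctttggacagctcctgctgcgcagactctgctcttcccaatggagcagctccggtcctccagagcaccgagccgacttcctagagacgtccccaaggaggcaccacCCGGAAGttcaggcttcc
Opa1: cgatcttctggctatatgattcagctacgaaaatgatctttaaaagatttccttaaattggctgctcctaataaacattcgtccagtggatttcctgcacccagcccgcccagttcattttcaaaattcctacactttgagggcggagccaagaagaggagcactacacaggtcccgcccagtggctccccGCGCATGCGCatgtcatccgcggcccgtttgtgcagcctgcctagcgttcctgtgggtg
Mtfp1: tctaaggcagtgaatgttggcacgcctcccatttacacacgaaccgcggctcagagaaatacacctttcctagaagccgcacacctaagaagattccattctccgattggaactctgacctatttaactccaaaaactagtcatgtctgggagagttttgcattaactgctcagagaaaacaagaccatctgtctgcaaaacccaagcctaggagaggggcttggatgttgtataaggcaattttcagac

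Counted from the start, the GABPA letters began at position -119 in Immt, -44 in Mfn1, -24 in Minos1 and -18 in Fis1. The ERR half-site of Minos1 began at -86 and the NRF-1 letters of Opa1 at -59, whereas the printed stretch of Mtfp1 held none of the motifs searched.

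The fusion genes were all lower on the mutant array. Mfn1, which tethers and joins outer membranes, read 10.22 in the control and 10.02 in the mutant, a log2 difference of -0.20. Mfn2, its relative that also links mitochondria to the endoplasmic or sarcoplasmic reticulum, read 11.63 and 11.45, a difference of -0.17. Opa1, the dynamin-like GTPase of the inner membrane that fuses it and keeps cristae narrow, read 10.25 and 10.07, a difference of -0.18. These 3 genes, which carry the fusion reaction itself, were thus lower by 12.8%, 11.3% and 12.0%, and the mitofusins lay 0.0247 apart on the log2 scale, less than the median gap of 0.0358 between 2 probe sets of 1 gene. Opa3, an inner membrane protein mutated in optic atrophy, read 9.29 and 9.20, a difference of -0.09. The subgroup had a median of -0.18, and 3 of its 4 genes had a ratio of 0.9 or less.

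Among the fission genes the dynamin and its receptors differed in size. Dnm1l, which encodes the dynamin DRP1 that constricts mitochondria, read 10.56 and 10.49, a log2 difference of -0.07. Fis1, an outer membrane protein of the fission machinery, read 10.93 and 10.74, and its difference was -0.19. Mff, the main receptor of DRP1 in many cells, read 10.92 and 10.78, a difference of -0.14. Both membrane proteins therefore had a lower ratio (0.878 and 0.907) than the dynamin itself (0.951). By quantitative RT-PCR in gastrocnemius of the same age, the paper reports similar Fis1 and Drp1 transcript levels in control and mutant mice. In the same assay it found Mfn2 and Opa1 decreased. Mfn1 was decreased there too, but the paper reports statistical significance for it only at a later age than that of these mice. The lower Fis1 signal of the mutant pool was thus not seen in that measurement.

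Mief1 and Mief2 encode MiD51 and MiD49, which also bind DRP1 at the outer membrane. Mief2 read 8.76 in the control and 8.51 in the mutant, a log2 difference of -0.25, and Mief1 read 7.29 and 7.23, a difference of -0.06. Mtfp1, an inner membrane protein (MTP18) that promotes division, read 8.55 and 8.28, a log2 difference of -0.26, at position 341 of 19936 genes counted from the lowest. This was the lowest value among the members except for the dimmer probe set of Parl. Gdap1, an outer membrane protein mutated in Charcot-Marie-Tooth neuropathy, read 7.68 and 7.62, a difference of -0.06. Mtfr1l, of the fission regulator family, read 10.39 and 10.36, and the probe set shared by Mtfr1 and Plppr1 read 8.94 and 8.91, so that both differed by -0.04. All 8 measured fission genes were below control, with a median of -0.11, and 3 (Mtfp1, Mief2 and Fis1) had a ratio of 0.9 or less.

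The proteases that process OPA1 were close to control. Oma1, the stress-activated protease, read 8.21 and 8.27 and was the member with the highest log2 difference, 0.06. Yme1l1, the ATP-dependent protease of the intermembrane space side, read 10.36 and 10.33, a difference of -0.02. Thus Opa1 had a ratio of 0.880 while its proteases had ratios of 1.04 and 0.984.

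Parl, the rhomboid protease that cleaves PINK1, had 2 probe sets that differed in size. The brighter one read 8.93 and 8.79, a log2 difference of -0.14, and the dimmer one read 8.88 and 8.58, a difference of -0.30. On this array the numbers of probe sets largely follow the genome. Of the 20 probe sets numbered nearest to the brighter one, 15 belonged to genes of chromosome 2, whereas 18 of 20 around the dimmer one belonged to chromosome 16, where RefSeq places Parl. Both probe sets were lower in the mutant, by 9.36% and 18.7%, so the size of the difference in Parl depends on the probe set chosen.

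Prohibitins form a ring-shaped scaffold in the inner membrane, and stomatin-like protein 2 binds them and cardiolipin. Phb2 read 10.90 and 10.83, a log2 difference of -0.07, and Stoml2 read 9.58 and 9.51, a difference of -0.08. Both probe sets annotated to Phb and Fyb, an adaptor of blood cells, had a difference of -0.19. They read 10.46 and 10.27 for the brighter, and 10.34 and 10.14 for the other. Of the probe sets numbered nearest to the brighter one, 20 of 20 belonged to chromosome 11, where RefSeq places Phb. Around the other, 19 of 20 belonged to chromosome 15. The brighter one thus lies among neighbours of Phb, although both are annotated to both genes. The median of the 5 measured genes of this subgroup was -0.07, and 4 of 5 were below control, none at a ratio of 0.9 or less with the brighter probe set of Parl and 1 (Parl, 0.813) with the dimmer.

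Cristae genes were all lower in the mutant, and the 2 core subunits of MICOS were lowest. Immt, which encodes mitofilin (MIC60), the large subunit that bridges the inner and outer membranes at cristae necks, read 11.11 in the control and 10.87 in the mutant, a log2 difference of -0.24. Minos1, which encodes MIC10, the small subunit that bends the membrane, read 9.21 and 8.96, a difference of -0.25. They were lower by 15.4% and 15.8%, at positions 461 and 418 of all genes.

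Chchd3, the MIC19 subunit that binds mitofilin, read 12.08 and 11.95, a log2 difference of -0.13, and its relative Chchd6 (MIC25) read 7.15 and 7.11, a difference of -0.04. Apool (MIC27), which binds cardiolipin, read 8.89 and 8.77, a difference of -0.12. The probe sets shared by Apoo (MIC26) and the pseudogene Apoo-ps read 12.22 and 12.16 for the brighter and 12.03 and 11.96 for the other, with differences of -0.06 and -0.07. Letm1, a cation carrier of the inner membrane and not a MICOS subunit, read 8.30 and 8.23, a difference of -0.07. The 6 measured cristae genes had a median of -0.12, and 2 of them, Immt and Minos1, had a ratio of 0.9 or less.

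Genes of mitochondrial transport showed small differences. Rhot1, the gene of the outer membrane GTPase Miro1 that anchors motors, read 9.36 and 9.38, a log2 difference of 0.02. Trak1 and Trak2, the adaptors between Miro and the kinesin and dynein motors, read 10.39 and 10.31 in Trak1 and 10.23 and 10.12 in Trak2, with differences of -0.08 and -0.11. The median of these 3 genes was -0.08, and none had a ratio of 0.9 or less. Rhot2 (Miro2) could be read only through a probe set shared with Wdr90, a gene of a WD-repeat protein, which had 8.64 and 8.46 and a difference of -0.19.

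With the brightest probe set of each gene, the mitophagy genes were nearest to control. Pink1, the kinase that marks damaged mitochondria for removal, read 11.40 on both arrays, a log2 difference of -0.0002. Bnip3 and Bnip3l, receptors of the outer membrane that bind LC3, read 11.62 on both arrays and 12.22 against 12.21, with log2 differences of -0.0028 and -0.01. Fundc1, a receptor used in hypoxia, read 9.94 and 9.87, a difference of -0.07, and its relative Fundc2 read 11.39 and 11.31, a difference of -0.08. The median was -0.01, and no gene of the 5 measured had a ratio of 0.9 or less, beside 8.11% of all named genes. With the brightest probe sets, none of the 3 transport genes and none of the 5 protease and scaffold genes had such a ratio either. The 8 members that did were all fusion, fission or cristae genes. The 26 members outside mitophagy had a median of -0.10.

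For Bnip3 and Bnip3l the brighter probe set again lay among probe sets of other chromosomes, 20 of 20 on chromosome 14 for Bnip3 (whose gene is on chromosome 7) and 19 of 20 on chromosome 12 for Bnip3l (on chromosome 14). The probe set of Bnip3 among neighbours of its own chromosome read 11.01 and 10.94, a log2 difference of -0.07, and that of Bnip3l read 12.04 and 12.02, a difference of -0.02. With these probe sets the median of the subgroup was -0.07, close to the median of all members (-0.08). It stayed nearer to control than the median of the members other than mitophagy (-0.10). With the same choice of probe sets the mitophagy median was -0.0729 and that of the proteases and scaffold -0.0672. Mitophagy was then no longer the subgroup nearest to control. Both the distance between the mitophagy genes and the others and their order thus depend on the probe set read for Bnip3. Pink1 was at control in either case.

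**Figure D3:**
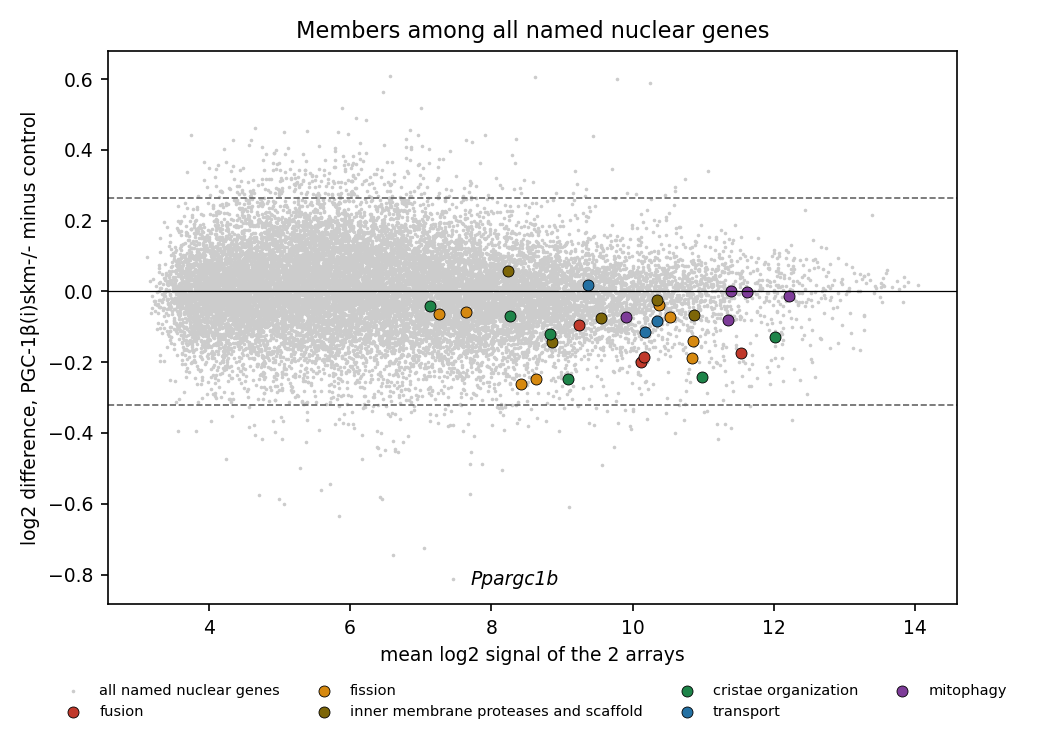
Log2 difference (y axis) against the mean log2 signal of both arrays (x axis) for 19936 named nuclear genes (grey) and the 31 measured members (coloured by subgroup), with dashed lines at ratios of 0.8 and 1.2. Below the zero line lie 29 of 31 members, and all lie inside both dashed lines, and Ppargc1b lies at the bottom.

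Related members were compared in 10 pairs of similar genes. In 6 pairs both genes had their own probe set, and in all 6 both were below 0. The gap within a pair was below 0.05 on the log2 scale in 4 of them, 0.02 for the mitofusins, 0.03 for Trak1 and Trak2, 0.01 for Bnip3 and Bnip3l, and 0.0092 for Fundc1 and Fundc2. Larger were those of Chchd3 and Chchd6 (0.09) and of Mief1 and Mief2 (0.18), the latter above the 90th percentile of the gap between 2 probe sets of 1 gene. The gap of Mief1 and Mief2 was singled out as the widest of the 6, and that percentile does not describe gaps between different genes. Through shared probe sets, Rhot1 and Rhot2 lay 0.21 apart, Phb and Phb2 0.12, Apoo and Apool 0.06, and Mtfr1 and Mtfr1l 0.0026.

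**Figure D4:**
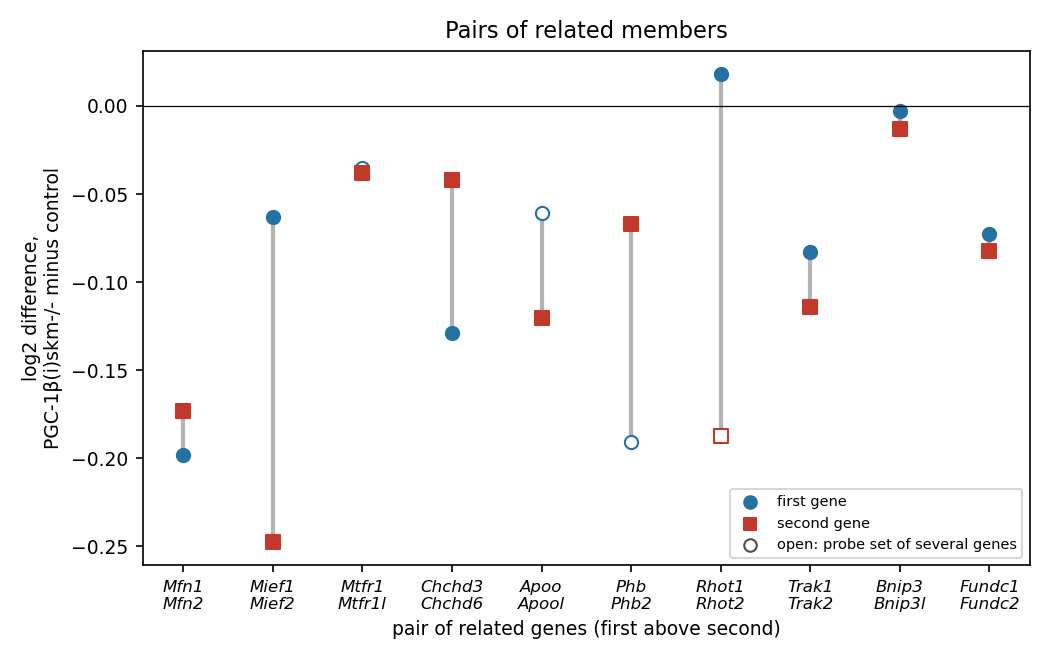
Log2 difference (y axis) of the 2 genes of each of 10 related pairs (x axis), the first gene as a circle and the second as a square. Open symbols are read through probe sets annotated to several genes. Mief1 and Mief2 are the widest pair with probe sets of their own, and only Rhot1 lies above 0.

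Further genes of the same processes were taken as lists of 75 genes, of which 71 had a probe set of their own. Below control lay 42 of 71, with a median log2 difference of -0.03, close to the 50.2% of all named genes and 56.4% of those with a mean signal of at least 7. A ratio of at most 0.9 was found for 9 genes (background 8.11%) and of at most 0.8 for 1 gene (background 0.652%). Genes of cristae and of the contact sites with the outer membrane were the list with the lowest median, -0.13, and 11 of 12 lay below 0, 4 of them at a ratio of 0.9 or less. Mtx2, a metaxin of the outer membrane assembly machinery that binds MICOS, read 9.54 and 9.24, a difference of -0.30. Micos13 (MIC13), which links the MIC60 and MIC10 parts of MICOS, read 7.79 and 7.55, a difference of -0.24. The 1 gene of the list above control was Letmd1, an inner membrane protein related to Letm1, which read 8.27 and 8.43 (difference 0.16). With Immt and Minos1, 3 genes of the MICOS complex thus had ratios between 0.842 and 0.848. These 3 were put together from 2 lists after the values were seen. The other subunits were nearer to control, with ratios of 0.9145 for Chchd3, 0.92 for Apool and 0.971 for Chchd6. Apoo, through shared probe sets, had 0.959 and 0.953.

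Other genes of fusion, fission and shape had a median of -0.01, with 11 of 19 below 0 and 4 at a ratio of 0.9 or less. Afg3l2, a subunit of the m-AAA protease of the matrix side, read 10.18 and 9.84, a log2 difference of -0.34, and was the further gene with a ratio below 0.8 (0.791). Mul1, an outer membrane ubiquitin ligase that acts on mitofusin 2, read 8.95 and 8.64, a difference of -0.32. Inf2, a formin that builds actin at fission sites, read 6.88 and 7.06, a difference of 0.18, and Usp30, a deubiquitinase of the outer membrane, read 7.64 and 7.76, a difference of 0.12.

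Motor and adaptor genes of transport had a median of 0.02, with 6 of 14 below 0 and none at a ratio of 0.9 or less. The lowest were the dynein heavy chain Dync1h1 (9.76 and 9.65, difference -0.11) and the kinesin light chain Klc1 (8.99 and 8.90, difference -0.10), and the highest were the light chain Klc4 (6.23 and 6.39, difference 0.16) and Kif5a (5.79 and 5.92, difference 0.13). Genes of mitophagy and general autophagy had a median of -0.02, with 14 of 26 below 0 and 1 at a ratio of 0.9 or less. That gene was Atg16l1, needed to attach LC3 to membranes, which read 8.16 and 7.97 (difference -0.19), followed by the LC3 gene Map1lc3a (9.86 and 9.75, difference -0.11). Foxo3, a transcription factor that drives autophagy genes in muscle, read 8.52 and 8.71 (difference 0.19), and Wipi2, which binds phosphoinositides on forming autophagosomes, read 8.46 and 8.57 (difference 0.11).

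Compared with 2 other mitochondrial groups on the same arrays, the members stood nearer to control in their median, which was -0.08. The 91 genes of oxidative phosphorylation had a median of -0.20, with 60 at a ratio of 0.9 or less and 12 at 0.8 or less, and the 25 Tomm and Timm genes of protein import had a median of -0.11, with 7 and 2. The counts did not all follow the medians. Below control lay 85 of the 91 oxidative phosphorylation genes, 18 of the 25 import genes and 29 of the 31 members. Of the members, 8 had a ratio of 0.9 or less. Fusion genes, at -0.18, lay closest to the oxidative phosphorylation genes. No difference between these lists was tested.

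**Figure D5:**
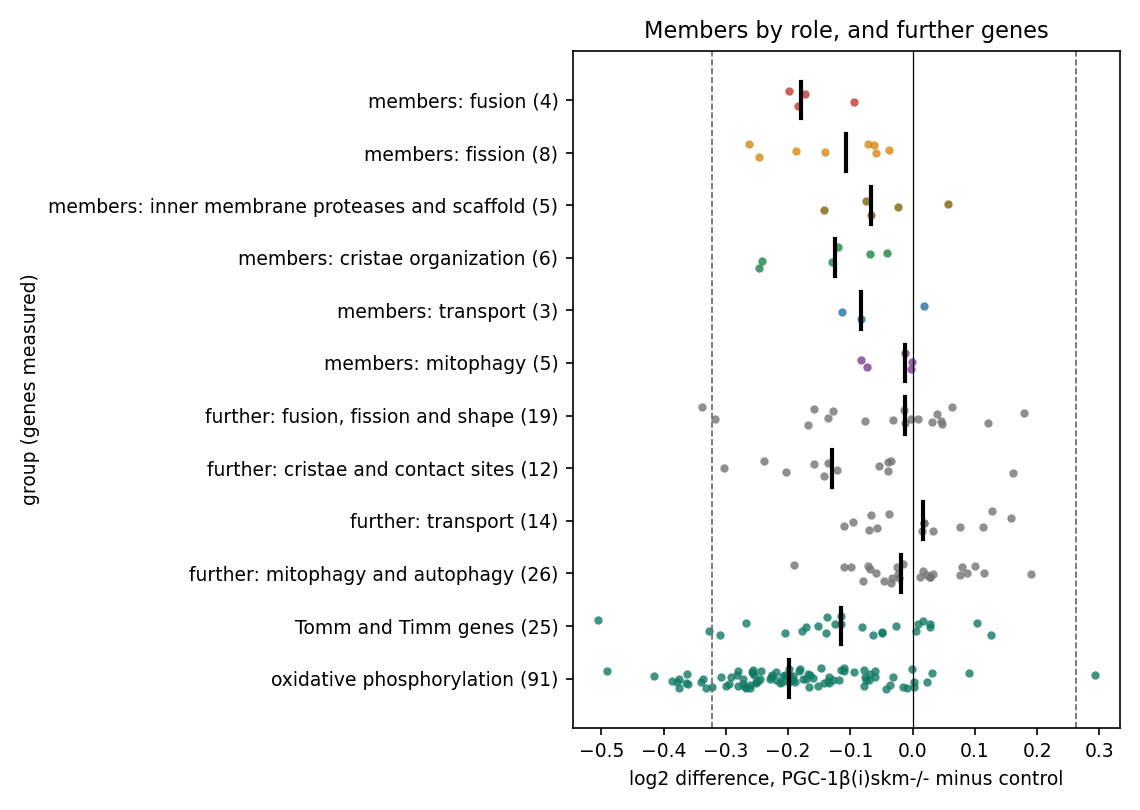
Log2 difference (x axis) of single genes (points) by subgroup or list (y axis, number of genes measured in brackets), with the median as a black bar and dashed lines at ratios of 0.8 and 1.2. Medians of the members run from -0.18 for fusion to -0.01 for mitophagy, and oxidative phosphorylation lies at -0.20.

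Promoter letters were counted on both strands in windows of 250 bases before to 50 bases after each RefSeq start, which existed for 32 of the 36 members (44 windows). GABPA letters (CCGGAAG) were present in 14 of 32 members, or 43.8%, beside 13.8% of 15006 coding genes on the array and 9.93% of 27025 genes with a window. Neither background was limited by signal, whereas every measured member had a mean log2 signal above 7. The part of signal in this difference of shares was not tested. By role they were found in 4 of 6 proteases and scaffold genes, 4 of 7 fission genes, 3 of 7 cristae genes, and 1 of 4 in each of fusion, transport and mitophagy. Members with and without them had medians of -0.08 and -0.09, with 4 of 13 and 4 of 16 at a ratio of 0.9 or less. The ERR half-site AAGGTCA was found in 2 of 32 members, Minos1 and Chchd6 (6.25%, against 4.41% of coding array genes and 5.38% of all), and its extended form TCAAGGTCA, which contains it, in none (0.32% and 0.466%). The paper searched a wider region around the starts of its most decreased genes and reports putative ERR elements in all of them. It also names Mfn2 among decreased genes with ERR-binding sites. NRF-1 letters were found in Opa1 (3.12%, against 4.38% and 3.05%). A match describes the sequence and is not a site in use, and the absence of one says only that these letters are not in the window.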

How the data were processed

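Gene expression was measured in 1 array of control and 1 array of PGC-1β(i)skm-/- gastrocnemius. The authors read intensities with GeneChip Command Console 3.2 and deposited log2 signals per probe set from Expression Console 1.1, made by RMA (background correction, quantile normalization, median polish), a procedure that hides any shift common to all genes. Detection above background could not be assessed from these values. For the probe sets, a genome build was not given in the sources used. RNA isolation was by a column kit according to the labels and by TRIzol according to the paper's methods.

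Of 35556 probe sets, 21789 were annotated to 1 gene symbol (21698 matched by Entrez ID to RefSeq, GRCm38.p6), 1621 to several (left out, except as stated) and 12146 were not listed. The probe set of highest mean signal stood for a gene. Differences were computed with Python 3.11.15, pandas 2.3.3, numpy 2.4.6 and statsmodels 0.14.6, by scripts tested on simulated data, and drawn with matplotlib 3.10.9. With 1 array per genotype no test was made, and precision is limited by the number of arrays. Members and lists were chosen with earlier results of these data known. Named genes were the members (1 not analysed here), Ppargc1b, and in each further list the 2 of largest decrease and up to 2 of largest increase. Myh1 and Ckm were named after their values were seen. Oxidative phosphorylation and import genes were taken by symbol prefix. Alternatives were the mean or the dimmer probe set of a gene, shared probe sets, signal minima of 6 and 7, centring on the median, a loess curve (span 0.3) and a threshold of 1/1.2. Bax, Chchd2, Klc2, Optn and the markers Cfd, Hba-a1 and Hbb-b1 had no probe set of their own, and some listed genes are not reported here.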

Additional observations from a re-analysis of the deposited data

How the results depend on the processing

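Across the alternatives, 87 values of medians and counts of members stayed within 0.05 on the log2 scale or within 1.5 times of the reported value. The 2 exceptions were the median of the mitophagy genes, which was -0.0729 in place of -0.01 with the dimmest probe set of each gene, and also -0.0729 with the probe set whose numbered neighbours lie on the chromosome of the gene, an alternative chosen after seeing the data. The median of all members ranged from -0.08 to -0.07, that of fusion from -0.18 to -0.17, of cristae genes from -0.12 to -0.11, of fission from -0.11 to -0.07, of proteases and scaffold from -0.07 to -0.06 and of transport from -0.10 to -0.07. Among single members, 243 values stayed within the spread of 1 probe set (SD 0.07) and 5 did not. Many of the unchanged values in both counts could not have moved. Every member exceeded both signal minima, so these settings left every value as reported. Only Parl, Bnip3 and Bnip3l had more than 1 probe set of their own, so the choice of probe set could change no other member. The counts of unchanged values are therefore not a measure of robustness. Parl moved to -0.22 with the mean of its probe sets and to -0.30 with either other choice of probe set, and Bnip3 moved to -0.07 with the same choices. No paired analysis was possible because each genotype has 1 array, and no array could be left out for the same reason. Members at a ratio of 0.9 or less numbered 9 in place of 8 with the mean of the probe sets or either of these choices, and 10 with shared probe sets included. Members below control numbered 28 in place of 29 of 31 with centring on the median, and 27 with the loess curve. With shared probe sets included they numbered 33 of 35. The number of arrays limits what can be said, and signal over background was not assessed.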
